A study of Mus musculus with 2 samples.

Results

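The genes described here make cholesterol and fatty acids in mouse mammary basal cells that carried a hairpin against Cdk14 (Cdk14-sh) or a scrambled hairpin (Scramble control). They are 34 genes chosen by symbol for their pathway step, of which 31 had a row among the 15239 genes of the deposited table. The 31 are 17 genes of sterol synthesis, its regulation and its acetyl-CoA supply, and 14 genes of fatty acid synthesis, desaturation, elongation and activation. The other 3 (Mvk, Nsdhl and Stard4) are not analysed here. Messenger RNA was sequenced in 1 library per group, and both libraries are labelled as mammary basal cells from normal mammary gland, with strain and age not given. Basal cells surround the luminal cells of mammary ducts and include contractile myoepithelial cells. Each library carries a short hairpin RNA, which lowers the messenger RNA it matches. The labels disagree on the material, since the extraction protocol speaks of retinas and the design text of MDA-MB-231, a human breast cancer line, but the gene identifiers are those of mouse.

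Cells build cholesterol from acetyl-CoA through mevalonate, farnesyl diphosphate, squalene and lanosterol, and they build fatty acids from the same acetyl-CoA through malonyl-CoA. The transcription factors SREBP-2 and SREBP-1, encoded by Srebf2 and Srebf1, switch on the sterol and the fatty acid genes when membrane sterol is low. Insig proteins hold SREBP precursors in the endoplasmic reticulum when sterol is plentiful. In the mammary gland these pathways are best known from the lactating epithelium, which makes milk lipid.

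Since each group is 1 library, replicate spread is unknown, and the differences carry neither a test nor a p-value. Levels are FPKM, the authors' fragment counts divided by gene length and library size. Fold values are ratios of FPKM, Cdk14-sh over Scramble control, with a 95% interval in parentheses from fragments recovered from the FPKM values, which covers counting error only and compares the libraries, not the conditions. The totals behind the values were 5088593 fragments in Cdk14-sh and 5093462 in Scramble control. For counts of genes, 1 was added to each FPKM value and the log2 ratio of Cdk14-sh over Scramble control taken; a ratio of at least 1 passes the 2-fold limit upward and one of at most -1 passes it downward. Such counts cover genes whose 2 values average 1 FPKM or more, here called measured. Across the 12819 measured genes this log2 ratio had an SD of 1.02 and a median of 0.02. Cdk14, the targeted kinase gene, was at 0.713 FPKM in Cdk14-sh and 2.06 FPKM in Scramble control, 34.5% of the control level. That is 2.9-fold lower (2.18 to 3.85). With 1 added to each value its log2 ratio was -0.84, short of the 2-fold limit. The basal markers Krt14 (994 FPKM in Cdk14-sh, 1200 in Scramble control) and Krt17 (867 in Cdk14-sh, 1350 in Scramble control) were abundant in both libraries, as was the smooth muscle actin gene Acta2 (696 in Cdk14-sh, 1100 in Scramble control). Of 12 retina genes, 2 are analysed, Gnat1 at 0.13 FPKM in Cdk14-sh and 1.88 in Scramble control and Opn1sw at 1.65 FPKM in Cdk14-sh and 1.59 in Scramble control.

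The promoters of 5 synthesis genes are shown. They are those of the genes at the ends of the range described below and of the gene whose promoter matched the letters TCACNCCAC. These letters stand for the sterol regulatory element, the site that SREBP proteins bind, and sites that differ from them were not searched. The promoters are RefSeq windows on GRCm38.p6, here the 250 bases before the annotated start, on the gene's strand. Of the 31 genes, 25 had such a window. Capitals mark matches on either strand to the sterol regulatory element (TCACNCCAC), the NF-Y box (CCAAT), the E-box (CACGTG) and the Sp1 box (GGGCGG). The sterol element match lies in Hmgcs1 (chr13:119690101-119690350, plus strand). Mvd (chr8:122443423-122443672, minus strand) and Srebf1 (chr11:60210472-60210721, minus strand, 1 of its 3 windows) had the highest log2 ratios among genes with a window. Acat2 (chr17:12960726-12960975, minus strand) and Cyp51 (chr5:4104698-4104947, minus strand) had the lowest. The Srebf1 window shown is the furthest downstream of its 3 and lies inside the annotated gene.
Hmgcs1: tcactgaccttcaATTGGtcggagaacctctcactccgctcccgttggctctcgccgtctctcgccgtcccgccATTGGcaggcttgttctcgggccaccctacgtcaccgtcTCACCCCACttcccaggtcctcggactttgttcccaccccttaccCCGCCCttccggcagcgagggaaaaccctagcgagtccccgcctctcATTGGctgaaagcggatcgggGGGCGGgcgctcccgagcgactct
Mvd: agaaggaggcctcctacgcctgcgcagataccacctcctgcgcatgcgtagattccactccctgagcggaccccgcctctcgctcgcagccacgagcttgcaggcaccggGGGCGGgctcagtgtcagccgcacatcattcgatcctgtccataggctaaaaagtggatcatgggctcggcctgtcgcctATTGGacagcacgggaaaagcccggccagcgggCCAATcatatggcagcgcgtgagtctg
Srebf1: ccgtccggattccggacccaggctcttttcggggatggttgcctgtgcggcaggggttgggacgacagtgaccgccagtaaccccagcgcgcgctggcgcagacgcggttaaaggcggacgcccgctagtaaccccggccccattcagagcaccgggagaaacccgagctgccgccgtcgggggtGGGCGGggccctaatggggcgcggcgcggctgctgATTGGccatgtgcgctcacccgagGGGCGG
Acat2: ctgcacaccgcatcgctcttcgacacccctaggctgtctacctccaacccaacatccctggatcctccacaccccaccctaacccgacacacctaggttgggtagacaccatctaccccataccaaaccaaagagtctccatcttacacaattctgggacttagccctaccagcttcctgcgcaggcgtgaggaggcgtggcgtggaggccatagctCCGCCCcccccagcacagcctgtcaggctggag
Cyp51: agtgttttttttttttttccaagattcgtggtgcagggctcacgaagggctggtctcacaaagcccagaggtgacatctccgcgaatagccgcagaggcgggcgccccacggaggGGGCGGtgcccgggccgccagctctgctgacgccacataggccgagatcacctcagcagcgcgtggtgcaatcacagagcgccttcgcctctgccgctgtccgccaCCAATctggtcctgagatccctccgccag

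Among the 29 measured synthesis genes, 8 passed the 2-fold limit upward in Cdk14-sh (27.6%) and 0 passed it downward (0%). Over all measured genes the limit was passed upward by 14.3% and downward by 13.5%. The count of 8 was 4 with a pseudocount of 5, where 5.28% of all measured genes passed upward, and 5 among genes averaging 5 FPKM or more, where 11.7% did. The 8 are Mvd and Pmvk of the mevalonate arm, Msmo1, Sc5d and Dhcr7 between lanosterol and cholesterol, and Srebf1, Acss2 and Scd2 of the fatty acid genes. On GRCm38 these protein-coding genes are placed by GENCODE M21 as follows, strand in parentheses, with Mvd at chr8:122433601-122443422 (minus), Pmvk at chr3:89454541-89469013 (plus), Msmo1 at chr8:64718139-64733792 (minus), Sc5d at chr9:42251595-42264256 (minus). The others are Dhcr7 at chr7:143823145-143848410 (plus), Srebf1 at chr11:60199089-60222581 (minus), Acss2 at chr2:155517948-155585724 (plus) and Scd2 at chr19:44293674-44306864 (plus). In Scramble control Mvd, Dhcr7 and Acss2 were below 1 FPKM, at 0.106, 0.338 and 0.106 FPKM. They met the level filter only through Cdk14-sh, where they stood at 15.2, 5.41 and 2.24 FPKM. Mvd and Srebf1 (2.67 FPKM in Scramble control) met the filter of 5 FPKM in the same way. The median log2 ratio of the 29 genes was 0.25, with 19 above 0 and 10 below, against 51.4% of all measured genes above 0. It was 0.24 over the 16 measured sterol genes and 0.25 over the 13 measured fatty acid genes. The summed level of the 31 genes was 670 FPKM in Cdk14-sh and 567 FPKM in Scramble control, a ratio of 1.18.

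**Figure D1:**
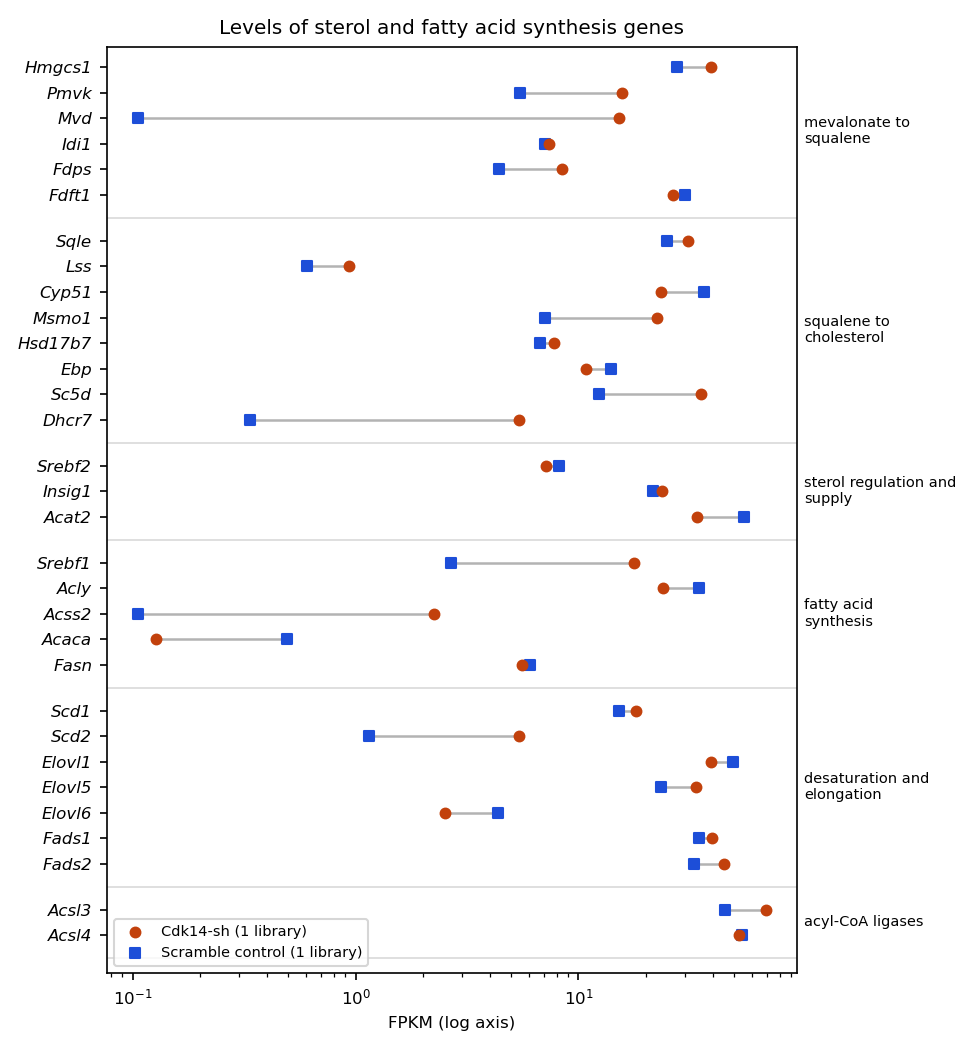
Level of each of the 31 synthesis genes in FPKM on a log axis, Cdk14-sh as circles and Scramble control as squares, 1 library each, grouped by pathway step. The widest gaps belong to Mvd, Dhcr7, Srebf1 and Acss2, whose Scramble control values are 0.106, 0.338, 2.67 and 0.106 FPKM, while Idi1, Acsl4 and Insig1 nearly coincide.

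The higher ratios lay mostly among genes of low or middling level. Of 4 synthesis genes with a mean of 1 to 5 FPKM, 3 passed the 2-fold limit upward, as did 4 of 11 with a mean of 5 to 20 FPKM and 1 of 14 with a mean of at least 20 FPKM. In the same ranges 18.5%, 14% and 8.46% of all measured genes passed the 2-fold limit upward. The ranges use the mean of both libraries, so a gene high in 1 library can enter a range through it. Dhcr7 and Acss2 entered the lowest range only through Cdk14-sh, as Mvd and Srebf1 did the middle and Sc5d the highest. These shares therefore do not test whether the differences depend on level. The most abundant synthesis genes stayed below 2-fold. Acsl3, the highest in Cdk14-sh, stood at 69.1 FPKM there and 45.6 FPKM in Scramble control, and Acat2, the highest in Scramble control, was at 34.1 FPKM in Cdk14-sh and 55.1 FPKM in Scramble control.

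**Figure D2:**
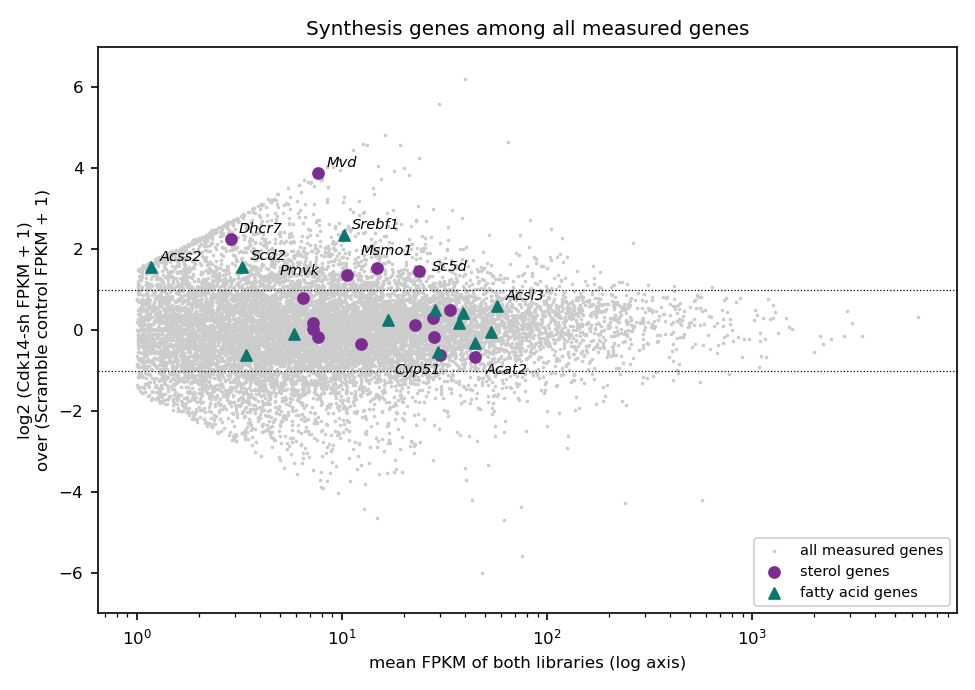
Log2 ratio of Cdk14-sh over Scramble control (pseudocount of 1) against mean FPKM on a log axis, for 12819 measured genes in grey, the 16 sterol genes as circles and the 13 fatty acid genes as triangles; dotted lines mark 2-fold. Synthesis genes pass the upper line (8) and none passes the lower one.

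From the making of HMG-CoA to squalene, 5 of 6 measured genes had a log2 ratio above 0 and 2 passed the 2-fold limit upward (33.3%). Over all measured genes, 51.4% had a log2 ratio above 0 and 14.3% passed the 2-fold limit upward. Acat2, the step before those 6 genes, had a log2 ratio of -0.67 and is described with the supply of acetyl-CoA units. Hmgcs1, which makes HMG-CoA, was at 39.5 FPKM in Cdk14-sh and 27.6 FPKM in Scramble control, 1.43-fold higher (1.29 to 1.59). Pmvk, the phosphomevalonate kinase gene, was at 15.7 FPKM in Cdk14-sh and 5.44 in Scramble control, 2.88-fold higher (2.04 to 4.06). These differences exceeded the counting error, and that of Hmgcs1 was below 2-fold. Mvd, the diphosphomevalonate decarboxylase gene that makes isopentenyl diphosphate, was at 15.2 FPKM in Cdk14-sh and 0.106 FPKM in Scramble control. Those levels correspond to 144 fragments in Cdk14-sh against 1 in Scramble control, a ratio of 144 (25.5 to 5730). Of 8041 genes averaging 5 FPKM or more over the libraries, 95 had at most 3 fragments in Cdk14-sh and 88 had at most 3 in Scramble control.

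The steps on either side of Mvd differed less. Idi1, the isomerase that follows it, was at 7.34 FPKM in Cdk14-sh and 7.11 FPKM in Scramble control, and its interval held 1 (0.803 to 1.33). Fdps, which joins isoprene units into farnesyl diphosphate, was at 8.45 FPKM in Cdk14-sh and 4.42 in Scramble control, 1.91-fold higher (1.48 to 2.47), but 26.7% of its exonic bases are shared with the gene model Gm43738 on the same strand and its value is uncertain. Fdft1, squalene synthase, was lower at 26.5 FPKM in Cdk14-sh and 30.1 in Scramble control, 1.14-fold (1.02 to 1.28). Ctsb, on the other strand, covers 18.3% of the exonic bases of Fdft1, and the sources used here do not state how strand was treated in counting.

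From squalene to cholesterol, 3 of 7 measured genes passed the 2-fold limit upward (42.9%), against 14.3% of all measured genes. The 3 lie at the 4-methyl oxidation, desaturation and final reduction steps. Msmo1, whose product starts the removal of methyl groups from sterol intermediates, was at 22.5 FPKM in Cdk14-sh and 7.07 in Scramble control, 3.19-fold higher (2.74 to 3.73). Sc5d, the lathosterol desaturase gene, was at 35.4 FPKM in Cdk14-sh and 12.3 in Scramble control, 2.88-fold higher (2.52 to 3.29). Both rest on at least 221.3 fragments in each library. Dhcr7, which reduces 7-dehydrocholesterol to cholesterol, was at 5.41 FPKM in Cdk14-sh and 0.338 in Scramble control, or 160 fragments in Cdk14-sh against 10 in Scramble control, a ratio of 16 (8.49 to 34).

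Their neighbours in the pathway did not share this size of difference. Sqle, squalene epoxidase and a rate-limiting enzyme, was at 30.9 FPKM in Cdk14-sh and 25 in Scramble control, 1.24-fold higher (1.12 to 1.37). Cyp51, the lanosterol demethylase, went the other way at 23.5 FPKM in Cdk14-sh and 36.6 in Scramble control, 1.56-fold lower (1.40 to 1.74). Ebp, the sterol isomerase, was at 10.8 FPKM in Cdk14-sh and 14 in Scramble control, 1.3-fold lower (1.02 to 1.65). Steps of the same stretch thus stood on opposite sides of 1. Hsd17b7, a sterol ketoreductase, was at 7.78 FPKM in Cdk14-sh and 6.73 in Scramble control, within counting error (0.939 to 1.42). Lss, which closes squalene epoxide into lanosterol, was below the level filter at 0.938 FPKM in Cdk14-sh and 0.605 in Scramble control.

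**Figure D3:**
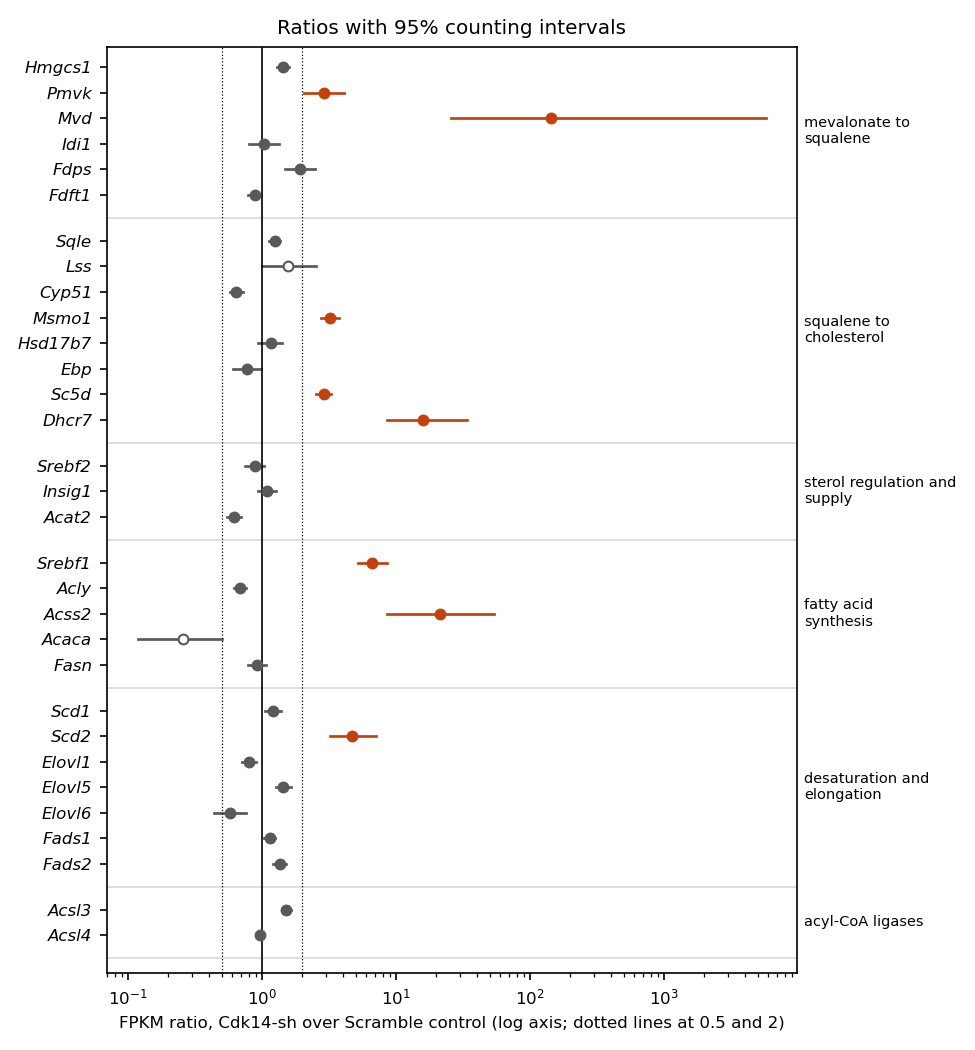
FPKM ratio of Cdk14-sh over Scramble control on a log axis with 95% counting intervals for the 31 synthesis genes; filled points are measured genes, open points (Lss, Acaca) have a mean below 1 FPKM, and the 8 coloured genes pass the 2-fold limit upward. The interval of Mvd runs from 25.5 to 5730 because Scramble control held 1 fragment, whereas those of Msmo1, Sc5d and Srebf1 are narrow.

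Of the SREBP genes, Srebf1 was higher in Cdk14-sh and Srebf2 was not distinguished from Scramble control. Srebf1 was at 17.7 FPKM in Cdk14-sh and 2.67 FPKM in Scramble control, 6.62-fold higher (5.19 to 8.51), from 507.8 fragments in Cdk14-sh and 76.8 in Scramble control. Srebf2 was at 7.17 FPKM in Cdk14-sh and 8.15 in Scramble control, within counting error (0.743 to 1.04). Srebf1 transcript was thus 2.47 times as abundant as Srebf2 per length in Cdk14-sh and 0.328 times in Scramble control. Insig1, a sterol-sensitive target and inhibitor of SREBP processing, was at 23.6 FPKM in Cdk14-sh and 21.7 in Scramble control (ratio 1.09, 0.938 to 1.26). Acat2, the cytosolic thiolase that condenses acetyl-CoA into acetoacetyl-CoA at the head of the mevalonate pathway, was at 34.1 FPKM in Cdk14-sh and 55.1 in Scramble control. It was 1.61-fold lower (1.43 to 1.82) and had the lowest log2 ratio of the measured synthesis genes, -0.67. The table gives 1 value per gene, so the isoforms of Srebf1 (SREBP-1a and SREBP-1c) are not told apart.

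Among the enzymes that supply and use acetyl-CoA for fatty acids, no common direction was seen. Acss2, which makes acetyl-CoA from acetate, was at 2.24 FPKM in Cdk14-sh and 0.106 in Scramble control, or 116 fragments in Cdk14-sh against 5.5 in Scramble control, a ratio of 21.1 (8.63 to 53.8). Acly, which makes it from citrate, was at 23.9 FPKM in Cdk14-sh and 34.9 in Scramble control, 1.46-fold lower (1.32 to 1.62). The citrate enzyme was the more abundant by far in both libraries. Fasn, fatty acid synthase, was at 5.57 FPKM in Cdk14-sh and 6.06 in Scramble control, within counting error (0.784 to 1.07). Acaca, acetyl-CoA carboxylase and the committed step, had a mean under 1 FPKM, at 0.127 FPKM in Cdk14-sh and 0.494 in Scramble control, from 11 fragments in Cdk14-sh and 43 in Scramble control, 3.91-fold lower (1.98 to 8.40). Its log2 ratio with the pseudocount was -0.41, short of the 2-fold limit with or without the level filter. Genes on the other strand, Acss2os, Ggt7 and Gss, cover 9.1% of the exonic bases of Acss2.

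Of the 7 desaturase and elongase genes, all were measured and only Scd2 passed the 2-fold limit upward (14.3%). Over all measured genes the share was also 14.3%. Scd1 and Scd2 encode stearoyl-CoA desaturases that make oleate. Scd2 was at 5.40 FPKM in Cdk14-sh and 1.15 in Scramble control, 4.68-fold higher (3.19 to 7.11). Scd1 was at 18.2 FPKM in Cdk14-sh and 15.2 in Scramble control, 1.2-fold higher (1.05 to 1.38). Scd1 exceeded Scd2 3.38 times in Cdk14-sh and 13.2 times in Scramble control. The Scd genes are close copies, and the sources used here do not state how reads matching several genes were assigned, so both values are uncertain. The fatty acid desaturases Fads1 (39.7 FPKM in Cdk14-sh, 34.9 in Scramble control) and Fads2 (44.8 FPKM in Cdk14-sh, 33 in Scramble control) make polyunsaturated fatty acids and were 1.14-fold (1.04 to 1.25) and 1.36-fold (1.21 to 1.52) higher.

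The elongases were split. Elovl5, which extends polyunsaturated fatty acids, was at 33.8 FPKM in Cdk14-sh and 23.4 in Scramble control, 1.44-fold higher (1.27 to 1.64). Elovl6, which extends palmitate to stearate, was at 2.51 FPKM in Cdk14-sh and 4.34 in Scramble control, 1.73-fold lower (1.31 to 2.3). Elovl1, which makes very long saturated chains, was at 39.5 FPKM in Cdk14-sh and 49.3 in Scramble control, 1.25-fold lower (1.11 to 1.40). The acyl-CoA ligase genes, which activate fatty acids for use, were among the most abundant. Acsl3 was 1.52-fold higher (1.40 to 1.64), and Acsl4, which prefers arachidonate, was at 52.3 FPKM in Cdk14-sh and 53.9 in Scramble control (ratio 0.970, 0.902 to 1.04).

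Of all 31 genes, 25 had a counting interval that left out 1, as did 63.9% of all genes of the table with a known length. Among the 29 measured genes the interval lay above 1 in 16 (55.2%) and below 1 in 7 (24.1%), against 35.9% above and 33.2% below over all measured genes with a length. Counting error is only part of the scatter between libraries. The SD of the log2 ratio over all measured genes, 1.02, nearly equals the 2-fold limit. Among the 29 measured genes it therefore sets apart the same 8 and adds nothing to that limit. It is a spread across genes and does not measure replicate spread.

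Other genes of the same pathways were listed by role, 77 in all, of which 63 were measured. Among these, 10 passed the 2-fold limit upward (15.9%) and 9 downward (14.3%), with a median log2 ratio of -0.07. These shares are close to those of all measured genes. Among the other sterol synthesis genes, Lbr, a lamin B receptor with sterol reductase activity, was at 36.4 FPKM in Cdk14-sh and 19.6 in Scramble control, 1.86-fold higher (1.66 to 2.08). Ggps1, which makes geranylgeranyl diphosphate, was at 18.6 FPKM in Cdk14-sh and 27.4 in Scramble control, 1.47-fold lower (1.3 to 1.66), and Tm7sf2, a sterol reductase gene, was within counting error (0.576 to 1.39).

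Among the 14 genes measured for sterol uptake, export and storage, the median log2 ratio was -0.08. The 2-fold limit was passed upward by 2 of them (14.3%) and downward by 0, against 14.3% and 13.5% of all measured genes. Mylip, a sterol-induced ubiquitin ligase gene, was at 14.5 FPKM in Cdk14-sh and 3.72 in Scramble control, 3.91-fold higher (2.95 to 5.28). The exporter gene Abcg1 was 1.37-fold higher (1.24 to 1.51). Soat1, which esterifies cholesterol for storage, was 2.19-fold lower (1.87 to 2.56) at 4.77 FPKM in Cdk14-sh and 10.4 in Scramble control, with a log2 ratio of -0.99, just inside the limit. Lipa, the lysosomal esterase, was 1.73-fold lower (1.49 to 2.01), and the liver X receptor gene Nr1h2 was 1.44-fold lower (1.27 to 1.65).

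Among the genes that control SREBP, the 8 measured had a median log2 ratio of -0.28. Scap, which escorts SREBP to the Golgi, was at 7.12 FPKM in Cdk14-sh and 3.60 in Scramble control, 1.98-fold higher (1.60 to 2.44). Insig2, a paralog of Insig1, was 1.82-fold lower (1.55 to 2.15). Mbtps1, the first protease that cuts SREBP in the Golgi, was 1.71-fold lower (1.54 to 1.91). Mbtps2, the second of these proteases, was below the level filter at 0.992 FPKM in Cdk14-sh and 0.223 in Scramble control. It was 4.44-fold higher (2.24 to 8.77) and was named after its value was seen. The gene Yy2 on the same strand shares 28.4% of the exonic bases of Mbtps2, so this value is uncertain. With or without Mbtps2, the escort, retention and cleavage genes thus shared no common direction. Erlin1, which acts in protein degradation at the endoplasmic reticulum, was at 10.9 FPKM in Cdk14-sh and 0.0396 in Scramble control, where it had 1 fragment, a ratio of 276 (49.2 to 11000), and its paralog Erlin2 was 1.76-fold higher (1.46 to 2.14). Rnf139, a sterol-responsive ubiquitin ligase, was 3.97-fold lower (3.32 to 4.80), and Tatdn1 on the other strand covers 22.3% of its exonic bases.

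Among 19 further measured genes of fatty acid synthesis, elongation and activation, 4 passed the 2-fold limit upward (21.1%) and 1 downward (5.26%). Over all measured genes these shares were 14.3% and 13.5%. Hsd17b12 and Hacd3 take part in the elongation cycle. Hacd3 was at 67.3 FPKM in Cdk14-sh and 19.5 in Scramble control, 3.45-fold higher (3.01 to 3.97), and Hsd17b12 was 2.63-fold higher (2.21 to 3.14). Acot1, an acyl-CoA thioesterase, was 2.76-fold higher (2.5 to 3.05), but it is a close copy of Acot2 and is uncertain. The acyl-CoA ligase gene Acsl5, chosen after its value was seen as the remaining one of the 4, was 2.29-fold higher (1.88 to 2.81). The acyl-CoA carrier gene Dbi was 2.05-fold lower (1.74 to 2.43) and Me1, which supplies NADPH, was 1.64-fold lower (1.31 to 2.06). Elovl4, which makes very long chains, was 1.29-fold lower (1.14 to 1.46).

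**Figure D4:**
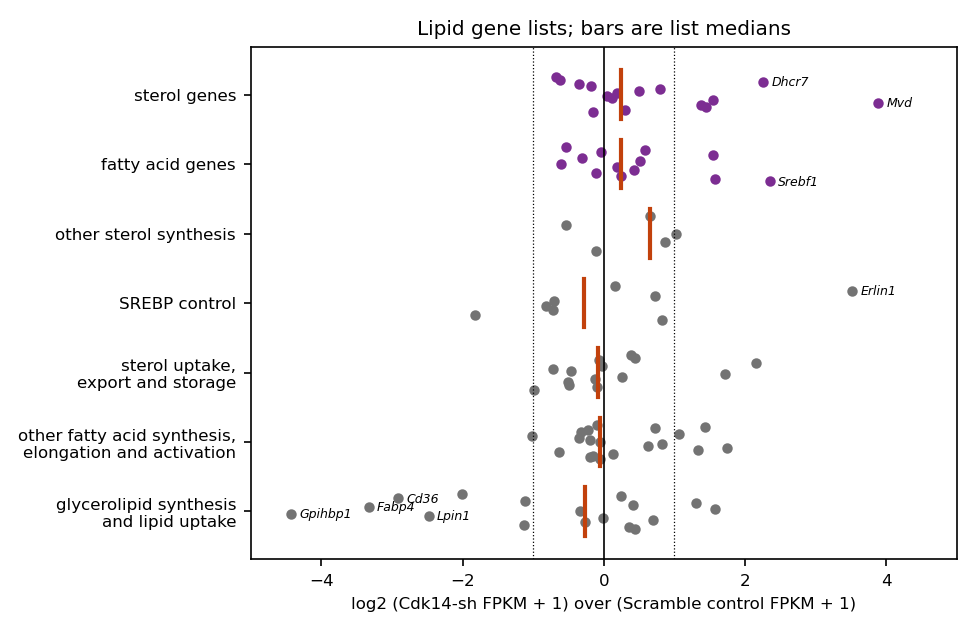
Log2 ratio of Cdk14-sh over Scramble control (pseudocount of 1) for the measured genes of each lipid gene list, 1 point per gene, with list medians as vertical bars and dotted lines at 2-fold. The 16 sterol and 13 fatty acid synthesis genes have medians of 0.24 and 0.25, and the list of glycerolipid synthesis and lipid uptake reaches furthest down, to Gpihbp1 at -4.43.

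Genes that take up lipid or build glycerolipids had the largest share of lower genes among the lipid gene lists. Of the 17 measured, 7 passed the 2-fold limit downward (41.2%) and 2 upward (11.8%), against 13.5% and 14.3% of all measured genes. Gpihbp1, which carries lipoprotein lipase on capillary endothelium, was at 0.231 FPKM in Cdk14-sh and 25.5 in Scramble control, 111-fold lower (37.5 to 539). Fabp4, a fatty acid carrier of adipocytes and capillaries, was at 8.45 FPKM in Cdk14-sh and 94.3 in Scramble control. Cd36, a fatty acid receptor, was at 28.8 FPKM in Cdk14-sh and 223 in Scramble control. The fold differences of Fabp4 and Cd36 were 11.2-fold lower (9.63 to 13) and 7.73-fold lower (7.05 to 8.48). On the other side stood Fabp5, the epidermal fatty acid carrier, 3.5-fold higher (2.65 to 4.62), and Dgat2, which completes triglyceride synthesis, 2.68-fold higher (2.16 to 3.34). Plin2, which coats lipid droplets, was at 69.7 FPKM in Cdk14-sh and 42.5 in Scramble control.

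Summed levels of marker genes differed as well. Endothelial markers summed to 20.1 FPKM in Cdk14-sh and 149 in Scramble control over 9 of 10 listed genes, with 6 of 8 measured past the 2-fold limit downward, among them Plvap at 3.56 FPKM in Cdk14-sh and 83.0 in Scramble control. Of 14 adipocyte markers, 5 were analysed and 3 measured. The 5 summed to 23.5 FPKM in Cdk14-sh and 131 in Scramble control, and Fabp4, which the lipid uptake list holds too, made up 8.45 FPKM of this in Cdk14-sh and 94.3 in Scramble control. Luminal markers summed to 890 FPKM in Cdk14-sh and 1480 in Scramble control over 16 of 18 genes. Of the 10 measured, 3 had a log2 ratio above 0 and 7 below. The 2-fold limit was passed upward by 2 of these (20%) and downward by 4 (40%). Basal markers summed to 3700 FPKM in Cdk14-sh and 4710 in Scramble control over 14 of 14. They were split, with 5 log2 ratios above 0 and 9 below. The 2-fold limit was passed upward by 3 of them (21.4%) and downward by 3 (21.4%). Over all measured genes it was passed upward by 14.3% and downward by 13.5%. Fibroblast markers had a lower sum, 121 FPKM in Cdk14-sh and 299 in Scramble control over 6 of 10, but a median log2 ratio of 1.02. The sum was carried by Gsn (43.8 FPKM in Cdk14-sh, 185 in Scramble control) and Dcn (41.2 FPKM in Cdk14-sh, 104 in Scramble control), while the other 4, all collagen or matrix genes, had log2 ratios above 0, and 3 of them passed the 2-fold limit upward. Immune markers were the only list with a higher sum, at 393 FPKM in Cdk14-sh and 105 in Scramble control over 7 of 10 genes. Of the 6 measured, 5 passed the 2-fold limit upward (83.3%). MHC class II genes carried most of the sum, among them H2-Ab1 (125 FPKM in Cdk14-sh, 23.6 in Scramble control). Cd68 was only 1.24-fold higher. The leukocyte gene Ptprc, below the level filter and named after its value was seen, was lower (0.247 FPKM in Cdk14-sh, 0.482 in Scramble control). In bulk RNA, fewer cells of a type and less RNA per cell cannot be told apart. The part of these cells in the differences of the synthesis genes was not tested.

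In the promoter windows, the NF-Y box was the commonest of the 4 motifs after the Sp1 box. It was present in 21 of 31 windows of the synthesis genes (67.7%) and in 37.4% of the 32851 windows of the whole RefSeq table. The Sp1 box was in 74.2% of synthesis gene windows and 35.7% of all windows, the E-box in 16.1% of synthesis gene windows and 7.15% of all, and the sterol regulatory element in 1 synthesis gene window (3.23%) and 1.24% of all. That match is TCACCCCAC in Hmgcs1, and its first base lies at -137 from the start. Mvd has NF-Y boxes at -60 and -27. Msmo1, at 3.19-fold higher, has 3 of them, and so does Fasn, which was within counting error, so the box was found in genes that differed and in genes that did not differ beyond counting error. Acat2, the gene of lowest log2 ratio, has none, and Cyp51, the next lowest of the genes with a window, has 1. A match is a match of letters and does not show binding, and sites that differ from these letters were not searched. The windows of the whole RefSeq table were not limited to genes of the deposited table. Nor were they matched to the synthesis genes in base composition or level. A gene with several windows counts once per window, as Dhcr7 and Srebf1 do with 3 each.

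**Figure D5:**
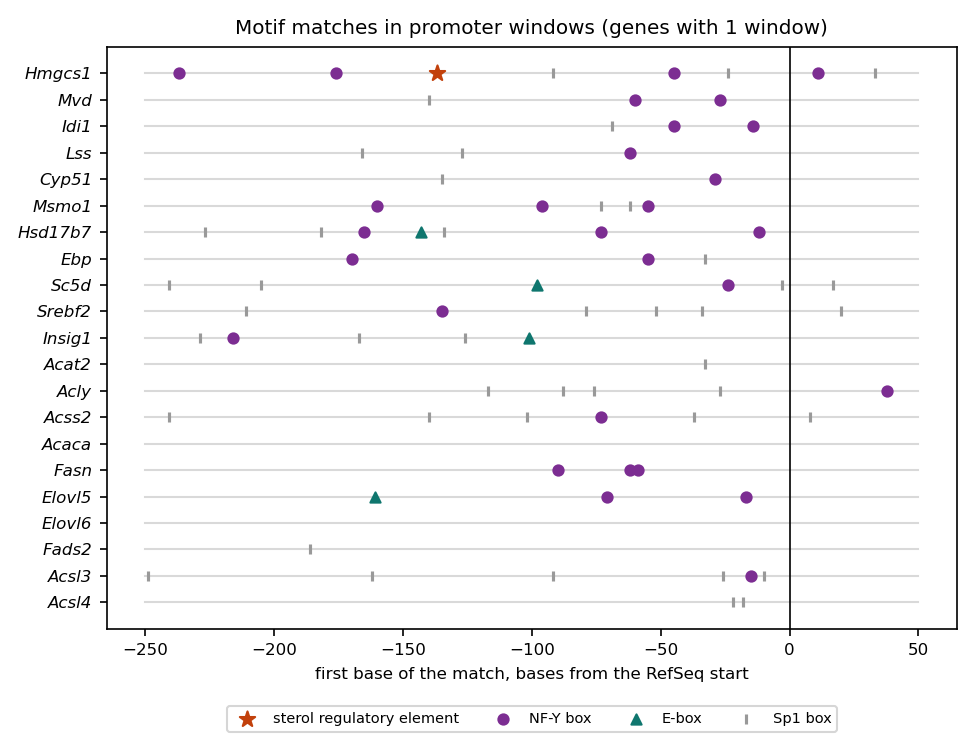
First base of each motif match relative to the RefSeq start, in bases, for the 21 synthesis genes with 1 promoter window of 300 bases (250 before and 50 after the start); symbols stand for the 4 motifs. Most NF-Y boxes lie before the start, and the single sterol regulatory element match is at -137 in Hmgcs1.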

How the data were processed

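Per the labels' protocols, stranded mRNA libraries were made from total RNA. The submitters' processing notes name Bowtie 0.12.2, Subread 1.5.1 and featureCounts as tools, and as builds GRCm38 and mm8, with no roles. The authors deposited FPKM values, 1 column per library, with column names that abbreviate the sample titles. No value in the table is 0. Members, lists and measures were chosen with earlier results of these data known.

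Fragments were recovered as FPKM times exonic length (GENCODE M21, GRCm38) times a library total found from the steps of the values. Of 15195 genes with a length, 80.7% in Cdk14-sh and 81.2% in Scramble control fell on multiples of 0.25 fragments (tolerance 0.02 steps); the rest are approximate. The commonest low step was taken as 1 fragment. Recovered fragments summed to 112% of each total. Intervals are exact (Clopper-Pearson) 95% binomial intervals of the share of fragments, turned into ratios; they cover counting error only, since reads that lack molecular identifiers may be copies of 1 molecule. Where rows shared a symbol, the row of highest mean was used (15 symbols, 0 of them synthesis genes). The recovery and the fold counts were tested on simulated data. Those data held whole fragments only, so they cannot check the choice of step or the genes that fell off the steps. Every synthesis gene may be named, and of each other list up to 3 highest and 3 lowest genes by log2 ratio; a name outside this rule is marked where it stands. Some genes that the rule would name are not reported here. Of each marker list, up to 3 genes of highest mean FPKM may be named, besides the sums. Promoters are from RefSeq (GRCm38.p6). Coordinates and shared exonic bases are from GENCODE M21. Alternatives were other pseudocounts, scalings, filters, fold limits, summed rows, the mean of a list, and a single read as a fragment in the intervals. Python 3.11.15, scipy 1.17.1 and pandas 2.3.3 were used.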

Additional observations from a re-analysis of the deposited data

How the results depend on the processing

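No paired analysis was possible because each group holds 1 library, and for the same reason no replicate could be left out. Of the settings tried, 3 scalings of Cdk14-sh, a pseudocount of 0.1, no filter on level and summed rows left every count of synthesis genes at its value (8 higher, 0 lower) and their median between 0.23 and 0.26. With a pseudocount of 5, 4 synthesis genes were at least 2-fold higher (3 sterol, 1 fatty acid). With a mean of at least 5 FPKM it was 5 (1 fatty acid), since Dhcr7, Acss2 and Scd2 drop out by their level. At a 1.5-fold limit 10 synthesis genes were higher and 3 lower (2 sterol, 1 fatty acid), and the other pathway genes came to 18 higher and 15 lower, where 25.3% of all measured genes were higher and 24.5% lower. At a 4-fold limit 3 synthesis genes were higher (2 sterol, 1 fatty acid) and 0 lower, with 2 higher and 5 lower among the other pathway genes, against 3.27% and 2.69% of all measured genes. The mean in place of the median gave log2 ratios of 0.56 for the synthesis genes, 0.65 for the sterol and 0.45 for the fatty acid genes. Of 228 single synthesis gene values under these settings, 221 moved no further in log2 than their counting interval reaches on average to either side. The other 7 moved further, all under the pseudocounts of 0.1 and 5, and 0 changed sign among those past 2-fold. Filters on level and summed rows cannot change the ratio of a synthesis gene. The 3 scalings shifted Cdk14-sh by only 0.01 to 0.02 in log2, so most of the 221 could hardly move. With 1 read taken as 1 fragment, 26 rather than 25 intervals left out 1, the addition being Srebf2. Depth limits Mvd, Acss2, Dhcr7, Acaca and Lss most.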
